A study of Mus musculus with 24 samples.

Results

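The differences between macrophages of 4 tissues were followed from the freshly sorted cell into culture. All 24 libraries of the series entered the comparison, 12 from sorted cells (ex vivo) and 12 from cultured cells (in vitro), with 3 libraries in each of 8 groups. For each gene, differences among microglia (MG) of the brain, Kupffer cells (KCs) of the liver, peritoneal macrophages (PMs) and alveolar macrophages (AMs) of the lung were tested once within each state. A further test asked whether the differences themselves changed between the states (tissue by state interaction). Of 45706 genes in the table, 17408 had enough reads to enter the tests.

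Tissue-resident macrophages share a core program that is set by lineage factors such as PU.1 (Spi1) and by signals through the colony stimulating factor receptors. On top of it lies a tissue program that depends on local signals, for example TGF-beta for the brain, retinoic acid for the peritoneal cavity and GM-CSF for the lung. Such programs are known to fade once the cells leave their tissue, and the genes at issue are therefore those that mark one tissue against the others.

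The mice were C57BL/6J females of 8 to 12 weeks, with no genetic modification or treatment named in the labels. Sorted cells were gated on CD45 and CD11b for MG, with F4/80 and TIM-4 added for KCs, F4/80 and CD115 for PMs, and SiglecF for AMs. The cultured MG-, KC-, PM- and AM-like cells (MG-, KC-, PM- and AM-LCs) were grown from unsorted organ suspensions on polyethylenimine-coated flasks. MG-LCs received M-CSF and IL-34, KC-LCs and PM-LCs received M-CSF, and all of them were kept at low oxygen with high glucose. AM-LCs received GM-CSF at atmospheric oxygen in medium without added glucose. KC-LCs and PM-LCs were thus the only pair with one medium and one oxygen level, and for the other pairs tissue of origin and culture condition cannot be told apart. A flask held cells pooled from several mice, except for liver, where 1 animal was used. The methods describe sorting for the tissue macrophages and not for the cultured cells. The labels number the libraries of a group without naming animals or flasks, so p-values measure the spread between these libraries.

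Total counts per library were between 29569486 and 47105111, and 3 reads corresponded to 0.0661 to 0.115 CPM (counts scaled to library size) over the libraries, which is the limit below which a level cannot be told from 0. The median replicate SD of log2 CPM was smallest in sorted MG (0.161) and largest in MG-LCs (0.598) and sorted KCs (0.554). Transcripts of fibroblasts and mesothelium differed most within the cultures. The summed level of 10 such markers was 31200, 7.49 and 1020 CPM in the 3 MG-LC libraries, 22.9, 2210 and 367 CPM in PM-LCs, 17.7, 182 and 1690 CPM in AM-LCs, and at most 29.8 CPM in KC-LCs and 35.9 CPM in any sorted library. In bulk RNA, fewer cells of a kind and less RNA per cell cannot be told apart. Of 16 core macrophage genes, 14 were measured at 11.3 CPM or more in each of the 24 libraries, the exceptions being Itgam and Aif1, with lowest values of 2.3 and 0.199 CPM. Csf1r, the M-CSF receptor, was measured at 340 CPM or more in each library, and Spi1 at 109 CPM or more.

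Most of the tissue differences seen in sorted cells were not found again after culture. Ex vivo, 11300 genes (64.9% of those tested) differed among the 4 tissues at an adjusted p under 0.05 (edgeR quasi-likelihood F test). In vitro, 1049 genes (6.03%) did so. The interaction passed for 6325 genes (36.3%). Genes were called lost when they differed ex vivo, did not differ in vitro, and passed the interaction with a smaller spread in vitro, and this held for 4834 genes (27.8%). Genes that differed in both states were called kept, and there were 901 (5.18%). The reverse of a lost gene was called gained, which applied to 69 genes (0.396%). A further 5565 genes (32%) differed ex vivo and not in vitro without a detectable interaction, so for them a loss was not shown. The in vitro counts depended on the test: DESeq2 called 3888 genes in vitro and 3139 kept, and one edgeR fit of all 24 libraries called 3673 and 2960, whereas the ex vivo count moved by less than 1.5 times in each alternative. Single cultured libraries also moved them. Without any one of the 3 AM-LC libraries, the 3 KC-LC libraries or PM-LC replicate 1, 280 to 557 genes were kept, with the lowest count without AM-LC replicate 2 (305 called in vitro). Without MG-LC replicate 1, the library richest in fibroblast transcripts, 1768 genes were called in vitro and 1537 kept, of which 870 were among the 901. Without MG-LC replicate 2, the MG-LC library poorest in these transcripts (7.49 CPM), 1349 genes were kept. Without the 3 libraries richest in them, 1187 were kept. The part of fibroblast transcripts in these counts was not tested.

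The size of the differences fell as well as their number. The SD of the 4 tissue means of log2 CPM had a median of 0.821 ex vivo and 0.463 in vitro, and was larger ex vivo in 76.3% of the genes. The range between the highest and the lowest tissue exceeded 2 on the log2 scale for 8006 genes (46%) ex vivo and for 4362 (25.1%) in vitro. The spread between replicates went the other way, with a median pooled SD of 0.448 ex vivo and 0.598 in vitro. Among the 11300 genes that differed ex vivo, the tissue highest ex vivo exceeded the lowest by a median of 2.42 (log2), and in vitro the same tissues differed by a median of 0.31 in the same direction (quartiles -0.13 and 0.937). This remainder depended on the tissue that had been highest. It was 0.442 for genes highest in AMs, 0.38 for MG, 0.276 for PMs and 0.0691 for KCs, and its direction was the same as ex vivo in 73%, 72.6%, 68.8% and 52.5% of these genes. For genes with an ex vivo range of at least 4, the median remainder was 1.43 for AMs, 1.04 for MG, 0.985 for PMs and 0 for KCs. Markers of other cells were often highest in sorted KCs, with 9 of 9 for T and NK cells, 7 of 8 for B cells, 7 of 9 for hepatocytes, 4 of 5 for neutrophils and 6 of 9 for monocytes and dendritic cells. Their sums were lower in KC-LCs, at 0 to 1.24 CPM after 41.8 to 263 CPM for T and NK cells and at 18.6 to 47.8 CPM after 254 to 359 CPM for hepatocytes. The hepatocyte sum was not highest in KCs, at 762 to 892 CPM in sorted PMs and 218 to 240 CPM in AMs. In sorted PM libraries, however, 5 to 7 of the 9 hepatocyte markers had 0 reads, against 0 of 9 in each sorted KC library. The B cell sum was highest in sorted MG, at 579 to 661 CPM, but 4 of the 8 markers had 0 reads in each sorted MG library. The part of these other cells in the small remainder of KC genes was not tested.

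**Figure D1:**
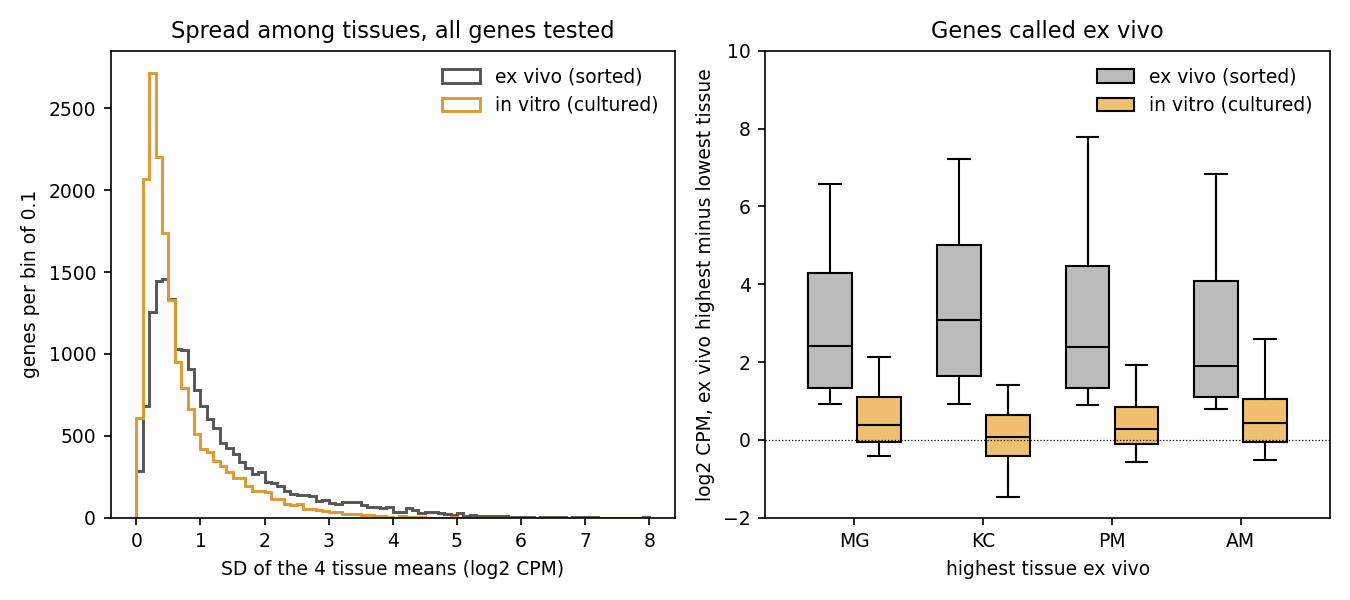
Left, distribution over 17408 genes of the SD of the 4 tissue means (log2 CPM, x axis; genes per bin, y axis) ex vivo and in vitro, where the in vitro curve is shifted towards 0, with a median of 0.463 against 0.821. Right, for the 11300 genes called ex vivo, the log2 CPM difference between the tissues highest and lowest ex vivo, in sorted (grey) and in cultured libraries (orange), by the tissue highest ex vivo (box, quartiles; line, median; whiskers, central 80%); the cultured boxes lie close to 0 and closest for KCs.

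The loss was not even across pairs of tissues. MG and KCs differed in 6661 genes (38.3%) ex vivo, and MG-LCs and KC-LCs in 0 genes, with 2486 genes at an unadjusted p under 0.05 by edgeR. For that pair limma-voom called 3 genes in vitro and DESeq2 1068, and edgeR called 339 without MG-LC replicate 2. KCs and PMs differed in 5577 genes (32%) ex vivo and in 21 (0.121%) in vitro, MG and PMs in 6974 (40.1%) and 14 (0.0804%). More genes were called in vitro in pairs with AMs. MG and AMs differed in 8517 genes (48.9%) ex vivo and 1077 (6.19%) in vitro, KCs and AMs in 6761 (38.8%) and 989 (5.68%), and PMs and AMs in 5667 (32.6%) and 677 (3.89%). The genes called in both states numbered 795, 614 and 454 in these pairs, of which 723, 511 and 395 had the same direction. The change of a pairwise difference between the states was called for 2350 genes (13.5%) between KCs and PMs and for up to 3630 genes (20.9%) between MG and AMs. Each AM pair sets GM-CSF, atmospheric oxygen and no added glucose against another condition, so the share due to tissue and to medium cannot be told apart. When the AMs of both states were left out of the fit, 2 genes differed among the 3 remaining cultures and both of them were kept: Fabp7, a fatty acid binding protein (adjusted p = 0.00158 in vitro), and Lyz1, a lysozyme (adjusted p = 0.00229).

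**Figure D2:**
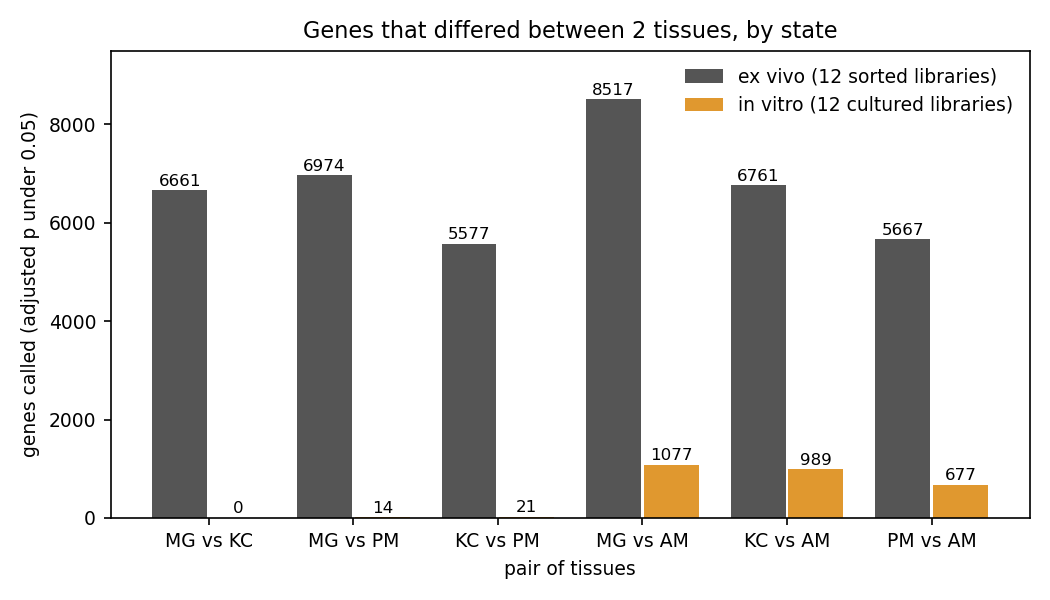
Number of genes called (y axis; adjusted p under 0.05, edgeR) between each pair of tissues (x axis) in 12 sorted libraries (grey) and 12 cultured libraries (orange); pairs without AMs fall from 5577 or more genes to 21 or fewer, while pairs with AMs have 677 to 1077 genes called in vitro.

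KC-LCs and PM-LCs, grown in the same medium, were separated by 21 genes in edgeR, of which 18 were higher in PM-LCs, by 1018 genes in DESeq2, by 447 in the single edgeR fit of 24 libraries and by 148 without the 3 libraries richest in fibroblast transcripts. The edgeR count moved with every cultured library: it was between 0 and 13 without any one AM-LC library, any one KC-LC library, PM-LC replicate 1 or PM-LC replicate 3, with 0 without KC-LC replicate 3, and between 39 and 137 without PM-LC replicate 2 or any one MG-LC library, with 137 without MG-LC replicate 1. Lyz1 was measured at 389, 873 and 533 CPM in PM-LCs and at 3.22, 9.45 and 8.48 CPM in KC-LCs (log2 difference -6.40, KC-LC minus PM-LC, adjusted p = 0.00398), after 2080 to 2350 CPM in sorted PMs and 1.95 to 30.9 CPM in sorted KCs (-7.64). The groups did not overlap in either state. Fabp7 gave a different picture. It was similar in sorted KCs (172, 157 and 237 CPM) and PMs (165, 118 and 186 CPM), stayed at 188, 172 and 196 CPM in PM-LCs, and was 2.04, 6.38 and 5.93 CPM in KC-LCs (log2 difference -5.26, adjusted p = 0.0298; change between states, adjusted p = 0.000556). Hopx, a homeodomain cofactor, was higher in PMs by 3.81 on the log2 scale ex vivo and by 2.98 in vitro, at 4.94, 5.59 and 3.8 CPM in PM-LCs and 0.36, 0.598 and 0.832 CPM in KC-LCs. AM-LCs were above both, at 17.8 to 34.4 CPM. Bcl2a1a, a BCL2-family survival gene, turned round. It was higher in KCs ex vivo (17.9, 8.93 and 5.82 against 0.902, 0.791 and 0.705 CPM) and higher in PM-LCs in vitro (16.6, 20.5 and 7.98 against 0, 0.274 and 0.227 CPM). It has near-identical neighbouring copies, so its reads may be divided among them.

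Tissue order was retained for part of the kept genes. The same tissue was highest in both states for 504 of the 901 kept genes (55.9%), against 36.6% of all genes tested and 28.4% of the lost genes. The full order of the 4 tissues was the same in 110 kept genes (12.2%; all genes, 7.39%). The share depended on the tissue. Of 384 kept genes highest in AMs ex vivo, 339 (88.3%) were highest in AM-LCs, against 49.6% over all genes that were highest in AMs. For MG the share was 75 of 179 (41.9%; all genes, 44.2%), for PMs 60 of 170 (35.3%; all genes, 27.5%) and for KCs 30 of 168 (17.9%; all genes, 18.7%). Kept genes highest in MG and KCs thus held their highest tissue about as often as any gene did. Among the 1049 genes called in vitro, AM-LCs were the highest or the lowest tissue in 83.3%, compared with 58.5% for AMs ex vivo. Of the kept genes, 706 also passed the interaction, 486 of them with a smaller and 220 with a larger spread in vitro. For the other 195 no change of the differences was detected.

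Whole profiles showed the same ranking. Each cultured library was centred on the mean of the 4 cultures and correlated, across genes, with the centred mean of each sorted tissue. These correlations describe the libraries, since genes are not independent replicates. AM-LC libraries gave r of 0.299, 0.41 and 0.237 with AMs, and PM-LC libraries 0.209, 0.151 and 0.176 with PMs. MG-LC libraries were the most uneven, with 0.042, 0.199 and 0.416 with MG. Their marker sums of fibroblasts and mesothelium were, in the same sequence, 31200, 7.49 and 1020 CPM. The part of these cells in the correlations was not tested. KC-LC libraries gave -0.035, 0.032 and 0.067 with KCs. The best match was the tissue of origin in 10 of 12 libraries, the exceptions being MG-LC replicate 1, nearest to PMs, and KC-LC replicate 1, nearest to MG.

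**Figure D3:**
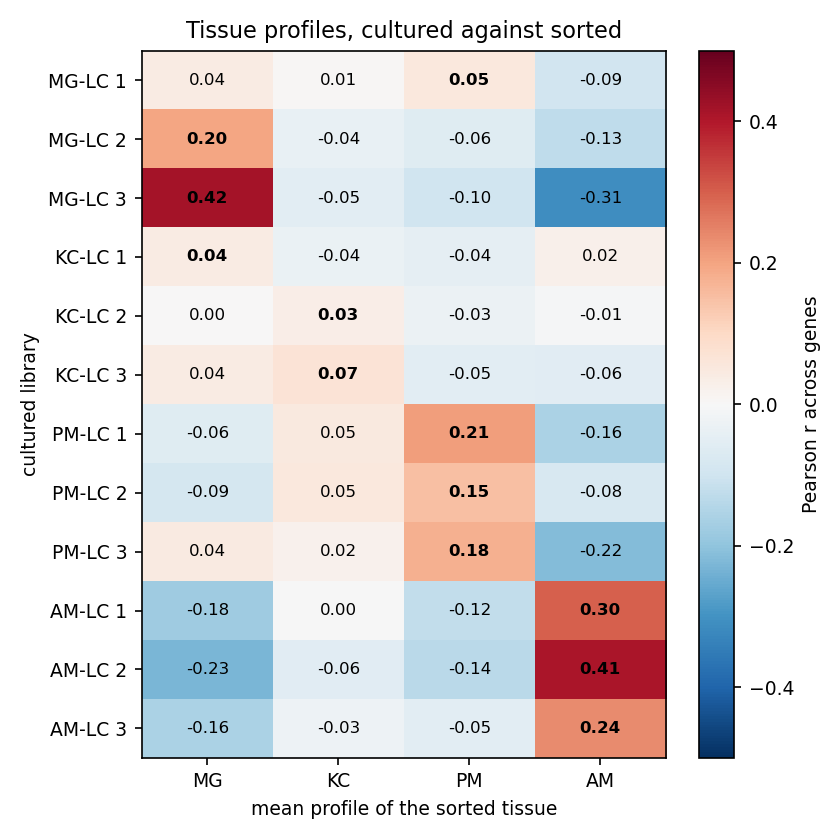
Pearson correlation across genes (colour and number; bold, highest in the row) between each of 12 cultured libraries (rows) and the mean profile of each sorted tissue (columns), each centred on the mean of its state; 10 of 12 rows peak at their own tissue, with values up to 0.42 for AM-LCs and MG-LCs and no more than 0.07 for KC-LCs.

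AMs were the highest tissue ex vivo for more kept genes than any other tissue. Chil3, a chitinase-like lectin (chromosome 3, 106147554 to 106167564), was measured at 18400, 21200 and 21300 CPM in AMs and at no more than 156 CPM in other sorted libraries. In AM-LCs it was 2320, 8710 and 2380 CPM, and at most 5.28 CPM in the other cultures, so AMs stood clear of all other libraries in both states. Its range of tissue means was 16.28 on the log2 scale ex vivo and 14.88 in vitro (adjusted p = 5.1e-07 and 0.000581), and the interaction did not pass (adjusted p = 0.0509), although it did in 10 of 34 alternatives (0.0119 to 0.667). Plet1, a surface glycoprotein (chromosome 9, 50494525 to 50505482), was at 1840, 1700 and 1840 CPM in AMs and at 492 CPM or more in each AM-LC library, with at most 0.983 CPM in any other culture. Car4, a membrane-bound carbonic anhydrase, was at 984, 957 and 918 CPM in AMs and 42.4, 333 and 106 CPM in AM-LCs, and at 0.591 CPM or less in the other cultures (adjusted p = 0.00337 in vitro). Siglecf, the sialic acid binding receptor used in the AM gate, was at 662, 651 and 643 CPM ex vivo and 82, 311 and 145 CPM in AM-LCs, above the 22.8 CPM maximum of the other cultures. The gate chose cells on this protein, which makes its ex vivo difference no finding. Of 28 AM identity genes tested, 28 differed ex vivo and 18 were kept, 8 were lost, and 26 had the same highest tissue in both states. The shares over all genes tested were 64.9%, 5.18%, 27.8% and 36.6%. The transcription factor Pparg, which GM-CSF signalling induces, was among the lost. It was 340, 333 and 374 CPM in AMs and at most 34.8 CPM in the other sorted cells, but 67.9, 116 and 102 CPM in AM-LCs against 104, 47.5 and 84.1 CPM in PM-LCs, where the groups overlapped (adjusted p = 0.186 in vitro).

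For MG, the kept genes were low or uneven between libraries. Serpine2, a secreted serine protease inhibitor (chromosome 1, 79794197 to 79861180), was at 824, 765 and 819 CPM in MG and at most 2.2 CPM in other sorted libraries. In culture it was 325, 153 and 712 CPM in MG-LCs and at most 73.2 CPM elsewhere (range 13.52 ex vivo and 6.63 in vitro, adjusted p = 5.11e-07 and 0.037, the latter not passing in 10 of 35 alternatives). Fibroblasts can also express it, and the marker sum of fibroblasts and mesothelium in these MG-LC libraries was 31200, 7.49 and 1020 CPM. The library with 7.49 CPM had the lowest Serpine2 of these, at 153 CPM. The part of fibroblasts in the Serpine2 level was not tested. Sall1, the transcription factor that defines MG (chromosome 8, 89027235 to 89044162), was at 681, 656 and 746 CPM in MG and at 0.134 CPM or less in other sorted libraries. It was 1.36, 1.52 and 20.7 CPM in MG-LCs against a maximum of 0.131 CPM in the other cultures. The MG-LC libraries thus stayed above all other cultured libraries, at a far lower level than in sorted MG. The test over all tissues passed in vitro (adjusted p = 0.0218) but not in 3 of 34 alternatives. Without AMs and AM-LCs its adjusted p was 0.172. Sall1 was not among the genes called between MG-LCs and KC-LCs or between MG-LCs and PM-LCs. Fcrls, an Fc receptor-like gene, kept its highest tissue in name, at 211, 404 and 1030 CPM in MG-LCs. KC-LCs overlapped with MG-LCs at 274, 206 and 237 CPM, after at most 1.09 CPM in sorted KCs. For Fcrls the difference between MG-LCs and KC-LCs did not pass (adjusted p = 0.56).

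Other MG genes were no longer set apart. P2ry12, the purinergic receptor of MG processes, was at 5390, 5690 and 5460 CPM in MG and at 2.49, 11.7 and 18.9 CPM in MG-LCs, against 2.42, 5.43 and 8.85 CPM in KC-LCs. Its range fell from 8.34 to 2.04 (adjusted p = 7.79e-09 ex vivo, 0.222 in vitro and 6.26e-05 for the interaction). Siglech, a sialic acid binding receptor, was at 1810 to 1930 CPM in MG and at 0, 0.0249 and 3.14 CPM in MG-LCs. Gpr34, a lysophospholipid receptor, was at 1850 to 1980 CPM in MG and 5.52, 49.2 and 154 CPM in MG-LCs, which overlapped with all other cultures. Trem2, a lipid-sensing receptor, was at 1140 to 1180 CPM in MG and 28.2 to 47.5 CPM in KCs, and in culture at 389, 1500 and 1650 CPM in MG-LCs and 1480 to 2110 CPM in KC-LCs. Of 27 MG identity genes tested, 27 differed ex vivo, 6 were kept, among them Tmem119, Sall1, Fcrls, Csf3r and Serpine2, and 20 were lost. The shares over all genes tested were 64.9%, 5.18% and 27.8%. A kept gene need not set MG-LCs apart. Mean Csf3r was 85.4 CPM in MG-LCs, 72.3 CPM in PM-LCs, 69.4 CPM in KC-LCs and 0.811 CPM in AM-LCs. MG remained highest in 15 of 27 (all genes tested, MG-LCs highest for 30.6% in vitro).

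Few KC genes kept KCs as the highest tissue. Kept genes with a highest group mean above a log2 CPM of 5 and the same tissue clear of all other libraries in both states numbered 10 for MG, 15 for PMs and 211 for AMs. Over all genes tested, the highest tissue lay above all other libraries in 43.4% ex vivo, in 9.75% in vitro and in 5.8% in both states. Clec4f, a C-type lectin used as a KC marker, was lost. It was at 8150, 14100 and 13000 CPM in KCs and at 0.286 CPM or less in other sorted cells, and at 0.168, 0 and 0 CPM in KC-LCs, with 1.81 CPM as the maximum of the other cultures. C6, a complement component, was at 555, 1310 and 1710 CPM in KCs and 0.024, 0 and 0 CPM in KC-LCs. Id3, a helix-loop-helix regulator needed for KCs, was lost in the opposite way. KC-LCs were at 804, 1170 and 853 CPM, above the 629, 669 and 452 CPM of sorted KCs, but MG-LCs had come to 432, 946 and 69.5 CPM and PM-LCs to 895, 599 and 422 CPM from 6.45 CPM or less when sorted. Of 24 KC identity genes, 24 differed ex vivo, 8 were kept and 16 were lost (all genes tested, 64.9%, 5.18% and 27.8%). Among the 24, KCs were highest for 22 ex vivo and for 5 in vitro, and PM-LCs were highest for 10 (all genes tested, 21.4%, 19.4% and 20.9%).

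Several kept KC genes had their highest mean in another tissue after culture. Vsig4, a complement receptor of the immunoglobulin superfamily (chromosome X, 96247203 to 96293438), was at 1700, 2810 and 3440 CPM in KCs and 663, 666 and 567 CPM in PMs. In culture it was 62, 16.1 and 101 CPM in PM-LCs and at most 0.229 CPM in the other cultures, KC-LCs included (KC against PM, adjusted p = 0.00313 ex vivo and 0.048 in vitro; change between states, 6.82e-06). KC-LCs were at the limit of detection, so no fold is given. Folr2, a folate receptor, was highest in KCs ex vivo (981, 1160 and 1220 CPM) and in PM-LCs in vitro (1430, 668 and 476 CPM, against 114, 106 and 38.5 CPM in KC-LCs). It was not among the 21 genes called between KC-LCs and PM-LCs. Marco, a scavenger receptor, was at 1200 to 1860 CPM in KCs and 720 to 892 CPM in AMs, and in culture was highest in AM-LCs, at 16.7, 96.4 and 30.3 CPM, with KC-LCs at 0, 0 and 0.328 CPM. Mean Marco was 824 CPM in sorted PMs and 1.46 CPM in PM-LCs. Rbp4, the retinol carrier, was at 15.8 to 60.7 CPM in KCs and at 4700, 2370 and 2790 CPM in AM-LCs, with 11.2 CPM as the maximum of all other cultures. Spint1 and S1pr1 were highest in other tissues ex vivo. Spint1, a protease inhibitor, had its highest mean in MG (209, 209 and 188 CPM) and in culture in AM-LCs (629, 320 and 260 CPM). Mean Spint1 was already 160 CPM in sorted AMs, and was 1.64 CPM in MG-LCs. For S1pr1, a sphingosine phosphate receptor, the highest mean was in PMs (237, 296 and 264 CPM) and in culture in MG-LCs (252, 239 and 270 CPM). Mean S1pr1 was 162 CPM in KC-LCs, 143 CPM in PM-LCs and 3.77 CPM in AM-LCs. It was not among the genes called between MG-LCs and KC-LCs or between MG-LCs and PM-LCs.

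PM genes were kept in moderate number. Arg1, the arginase of alternatively activated macrophages (chromosome 10, 24915221 to 24927484), was at 227, 334 and 233 CPM in PMs and at 121, 184 and 280 CPM in PM-LCs. Other libraries did not exceed 1.01 CPM ex vivo and 8.32 CPM in vitro, and the range was 9.38 ex vivo and 11.04 in vitro (adjusted p = 9.75e-09 and 0.00401). Naip1, a sensor of the inflammasome (chromosome 13, 100407764 to 100452869), was at 53.3, 74.8 and 54.8 CPM in PMs and 9.76, 12.4 and 15.1 CPM in PM-LCs, with 3.28 CPM as the maximum of the other cultures. It belongs to a family of near-identical copies, so its reads may be divided. Plxna4os1, an antisense transcript, was at 46.5 to 58.7 CPM in PMs and 39.8, 53.3 and 24.7 CPM in PM-LCs. Reads from its sense partner cannot be told apart without strand information. The defining regulator Gata6 was lost by the test. It was at 146, 147 and 140 CPM in PMs and at 0.299 CPM or less in other sorted cells, and at 4.36, 27.1 and 19.7 CPM in PM-LCs, with AM-LCs reaching 8.36 CPM (adjusted p = 0.16 in vitro, interaction 0.0145). Gata6 is also expressed by mesothelium, whose marker sum with fibroblasts in those PM-LC libraries was 22.9, 2210 and 367 CPM; its part in the Gata6 level was not tested. Over the alternatives its in vitro adjusted p ranged from 0.0185 to 0.322 and passed in 2 of 35. Cebpb, a factor of myeloid differentiation, was highest in AMs ex vivo, had a range of 4.27 ex vivo and 0.53 in vitro, and overlapped between the 4 cultures. Emilin2, an extracellular matrix protein, was at 3730, 5210 and 3730 CPM in PMs, at most 0.46 CPM in sorted MG, and between 108 and 597 CPM over all 12 cultured libraries. Of 24 PM identity genes, 24 differed ex vivo, 5 were kept (Alox15, F10, Cxcl13, Naip1 and Arg1) and 18 were lost. The shares over all genes tested were 64.9%, 5.18% and 27.8%. PMs were highest for 23 ex vivo and 17 in vitro (all genes tested, 20.4% and 20.9%).

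**Figure D4:**
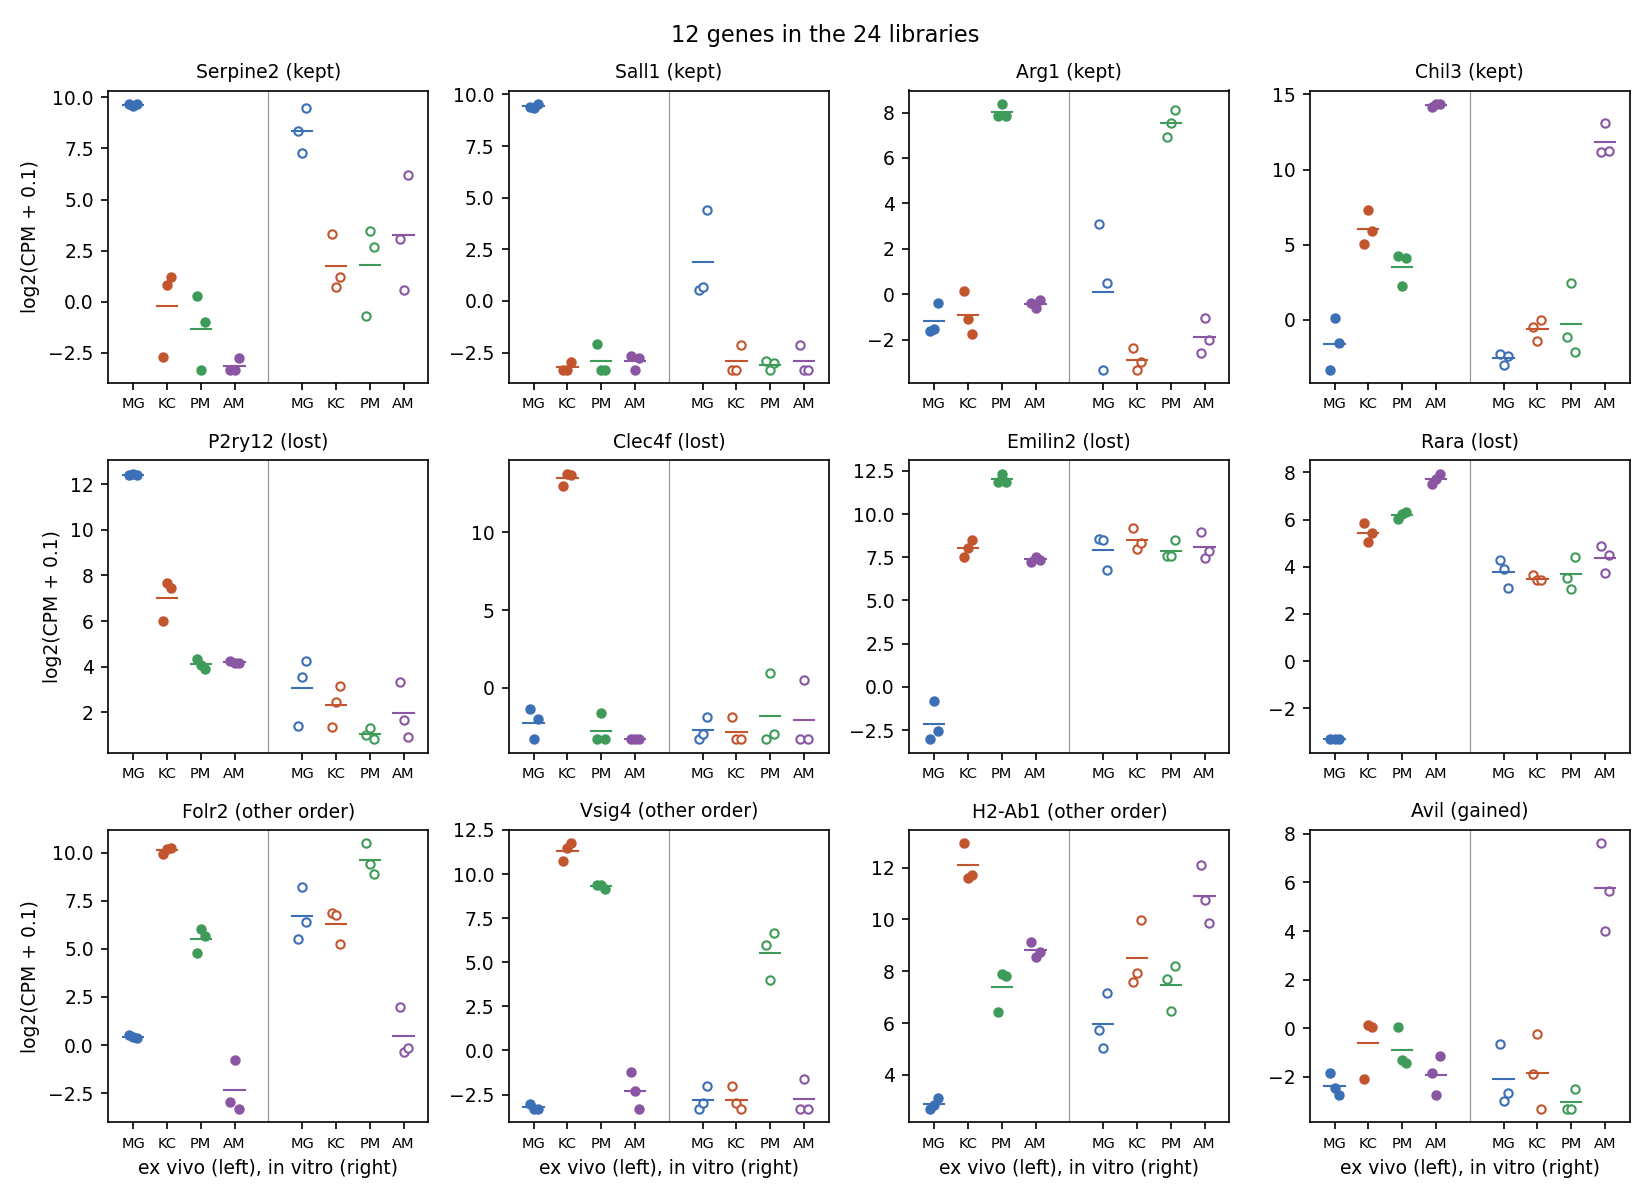
Level of 12 genes in each library (points; log2 of CPM plus 0.1) with the group mean (line), sorted tissues to the left (filled) and cultured ones to the right (open) of the grey line in each panel. Top row, genes with the same highest tissue in both states; middle row, lost genes, whose cultured groups overlap; bottom row, 3 genes whose highest tissue changed, and Avil, which differed in vitro with AM-LCs at 16 to 196 CPM.

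Regulators followed the lists. Of 40 transcription factors tested, 39 differed among tissues ex vivo, 9 were kept (Maf, Sall1, Mef2c, Smad3, Nr1h3, Klf2, Bhlhe40, Tfec and Epas1) and 22 were lost. The shares over all genes tested were 64.9%, 5.18% and 27.8%. Tfec, a factor of the MiT family, had the same order in both states, AM, KC, PM and MG, with 90.9, 112 and 102 CPM in AMs and 47.5, 57.7 and 47.9 CPM in AM-LCs (adjusted p = 0.00116 in vitro), while its range fell from 7.7 to 2.46 (interaction, adjusted p = 4.6e-09). Maf, known to restrain self-renewal, was lowest in AMs in both states, at 0.329 CPM or less ex vivo and 4.83, 2.21 and 4.7 CPM in AM-LCs, with at least 25.7 CPM in each other cultured library. Nr1h3, the oxysterol receptor of KCs, went from 540, 690 and 656 CPM in KCs to 22.3, 51.7 and 49.4 CPM in KC-LCs, overlapping with PM-LCs (122, 56.2 and 44.3 CPM) and AM-LCs (46.6, 72.5 and 57.6 CPM). Rara, a retinoic acid receptor, was at 0 CPM in the 3 sorted MG libraries and 182, 214 and 248 CPM in AMs, and at 8.29 to 29.6 CPM over all cultures.

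MHC class II genes kept differences but changed their order. Of 11 genes tested, 11 differed ex vivo and 8 were kept, yet 1 of 11 had the same highest tissue (all genes tested, 64.9%, 5.18% and 36.6%). KCs were highest in 8 of 11 ex vivo and AM-LCs in 11 of 11 in vitro (all genes tested, 21.4% and 29.1%). H2-Ab1, a chain of the I-A molecule, was at 7880, 3080 and 3410 CPM in KCs and at 560, 379 and 428 CPM in AMs. In culture AM-LCs had 4360, 1740 and 943 CPM and KC-LCs 194, 244 and 1020 CPM, so that 1 KC-LC library overlapped with AM-LCs (AM minus the mean of the others, log2 difference 3.60, adjusted p = 0.00377 in vitro). Ciita, the transactivator of these genes, was at 284, 60.3 and 66.6 CPM in KCs and, in culture, highest in AM-LCs at 48.5, 13.7 and 17.9 CPM. Between KCs and AMs, some markers of other cells moved with these values. The summed level of 9 monocyte and dendritic cell markers, cells that carry MHC class II themselves, was 827, 146 and 149 CPM in KCs, highest in the library that was also highest for H2-Ab1 and Ciita, and 7.72 to 12.8 CPM in AMs. In culture it was 111, 55.8 and 41.1 CPM in AM-LCs and 1.79 to 5.76 CPM in KC-LCs, so between KCs and AMs it was higher, in each state, in the tissue with the higher H2-Ab1 level. Sorted PMs, with less H2-Ab1, had 132 to 207 CPM. T and NK cell markers (9 genes) summed to 41.8 to 263 CPM in KCs and 2.99 to 6.32 CPM in AMs. B cell markers (8 genes) summed to 180 to 402 CPM in KCs and 5.86, 3.94 and 185 CPM in AMs, the last of which lay within the KC range. The B cell sum was highest in sorted MG, at 579 to 661 CPM, where mean H2-Ab1 was 7.31 CPM. In each sorted MG library, however, 4 of the 8 B cell markers had 0 reads. By marker, sorted KCs were highest for 7 of 8 and MG for 1. The part of these cells in the MHC class II values was not tested. In KC-LCs the T and NK cell and B cell sums were at most 1.24 and 21 CPM.

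Interferon-stimulated genes differed among sorted tissues, and 2 of 35 differed among cultures, near the share over all genes tested (6.03%). Of 35 genes tested, KCs were highest for 34 ex vivo and PM-LCs for 33 in vitro, whereas over all genes tested KCs were highest for 21.4% ex vivo and PM-LCs for 20.9% in vitro. All 35 differed ex vivo, 2 were kept (Ifit2 and Oas3) and 25 were lost (all genes tested, 64.9%, 5.18% and 27.8%). Irf7, the regulator of the interferon response, was at 994, 938 and 983 CPM in KCs and at most 88.9 CPM in the other sorted cells. In culture it was 1410, 1090 and 327 CPM in PM-LCs, 37.2, 333 and 180 CPM in KC-LCs and 553, 53.1 and 21.7 CPM in MG-LCs, and these groups overlapped (adjusted p = 0.0992). These genes tend to move together, so the 35 do not count as separate observations.

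Genes of hypoxia and glycolysis mostly did not pass the test in vitro. Of 28 genes, MG-LCs were the highest for 22 in vitro and AM-LCs the lowest for 19. Ex vivo, MG were highest for 8 and AMs lowest for 7. AM-LCs differed from the other cultures in tissue, GM-CSF, atmospheric oxygen and lack of added glucose, which cannot be told apart. Over all genes tested, MG-LCs were highest for 30.6% and AM-LCs lowest for 30.4% in vitro, and these counts rank group means whether or not a gene passed. Of the 28, 5 were kept (Pfkfb3, Tpi1, Pdk1, Egln3 and Ankrd37) and 18 were lost, where all genes tested gave 5.18% kept and 27.8% lost. Ankrd37, a hypoxia-induced gene, was at 5.29 CPM or less in all sorted libraries, and in culture at 17.8 to 60.5 CPM in MG-, KC- and PM-LCs and at 1.54, 1.3 and 2.73 CPM in AM-LCs (adjusted p = 0.000966 in vitro). Tpi1, an enzyme of glycolysis, had its highest mean in AMs ex vivo (205, 192 and 215 CPM, overlapping with KCs) and lowest in AM-LCs in vitro (275, 301 and 386 CPM against 523 to 1560 CPM in the others). Cell cycle genes were highest in AMs for 25 and KCs for 16 of 41 ex vivo, and in KC-LCs for 34 in vitro (all genes tested, AMs 24.4% and KCs 21.4% ex vivo, KC-LCs 19.4% in vitro), with 4 kept and 29 lost. Top2a, the topoisomerase of dividing cells, was at 206, 66.2 and 97.9 CPM in KC-LCs and 5.17, 12.4 and 3.24 CPM in PM-LCs (4 tissues in vitro, adjusted p = 0.0309). Of 22 complement genes, 2 were kept and 18 lost. C1qa, at 0.359 CPM or less in AMs and 2560 CPM or more in each other sorted library, was at 290, 45.2 and 42.9 CPM in AM-LCs and 259 to 2530 CPM in the others (adjusted p = 0.105). Of 73 cytosolic ribosomal protein genes, 60 differed ex vivo (all genes tested, 64.9%), 0 were kept and 43 were lost. The median SD of tissue means of the 73 genes was 0.984 ex vivo and 0.2 in vitro. Many of these have near-identical pseudogenes, so their counts are uncertain. In vitro, 0 of the 73 passed by edgeR (all genes tested, 6.03%).

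Genes of sterol synthesis and lysosomes were often highest in AMs in both states. Of 24 genes of cholesterol synthesis, AMs were highest for 21 ex vivo and 15 in vitro (all genes tested, 24.4% and 29.1%), with 4 kept and 15 lost. Mvd, a decarboxylase of that pathway, was at 127, 105 and 124 CPM in AMs and 157, 153 and 127 CPM in AM-LCs, against at most 29.5 CPM in the other cultures (adjusted p = 0.000103). Of 50 lysosomal genes, 11 were kept and 19 lost. Ctsk, a cathepsin, was at 641, 443 and 430 CPM in AMs and 908, 7930 and 3680 CPM in AM-LCs, with 57.6 CPM as the highest of the other cultures. Of 50 lysosomal genes, AMs were highest for 23 ex vivo and 27 in vitro (all genes tested, 24.4% and 29.1%). Of 17 genes of alternative activation, 8 were kept and 6 lost. Among these, the chemokine Ccl17 was at 4.81, 1.59 and 2.11 CPM in AMs and 217, 510 and 133 CPM in AM-LCs, with 0.202 CPM at most in the other cultures, so its range rose from 7.02 to 12.12 (interaction, adjusted p = 0.000118). Ex vivo its highest mean was in KCs, at 74.8, 7.14 and 1.28 CPM, which overlapped with AMs. Among other lists, 9 of 25 scavenger and uptake receptors were kept and 10 lost, 7 of 32 chemokines and receptors were kept and 17 lost, 5 of 20 disease-associated microglia genes were kept and 14 lost, and 4 of 21 Toll-like receptors and adaptors were kept and 8 lost. These shares stand against 5.18% kept and 27.8% lost over all genes tested.

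Gained differences were rare. AM-LCs were the highest culture for 44 of the 69 genes, next to 57.9% of all genes called in vitro and 29.1% of all genes tested. MG-LCs were highest for 12, KC-LCs for 10 and PM-LCs for 3. Avil, an actin-binding protein of the villin family (chromosome 10, 127000709 to 127020994), was at 1.01 CPM or less in each sorted library and at 196, 16 and 50.5 CPM in AM-LCs, against a maximum of 0.748 CPM in other cultures (adjusted p = 0.111 ex vivo, 0.00435 in vitro, interaction 0.000465). Elovl7, an elongase of long-chain fatty acids, was at 2.49 CPM or less ex vivo and 92, 65 and 67.7 CPM in AM-LCs, with up to 17.5 CPM in KC-LCs, and its interaction (adjusted p = 0.0475) fell on the other side of the threshold in 19 of 35 alternatives. Pter, a phosphotriesterase-related gene, was at 5.91 to 21 CPM in all sorted libraries and at 38.9, 32.8 and 65.5 CPM in AM-LCs, with 15.9 CPM as the maximum elsewhere in culture. Of the 69 gained genes, 13 were above a log2 CPM of 5 and clear of all other cultures, and all 13 were highest in AM-LCs. Without any one AM-LC or KC-LC library or PM-LC replicate 1 there were 15 to 31 gained genes, and without MG-LC replicate 2 there were 143.

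**Figure D5:**
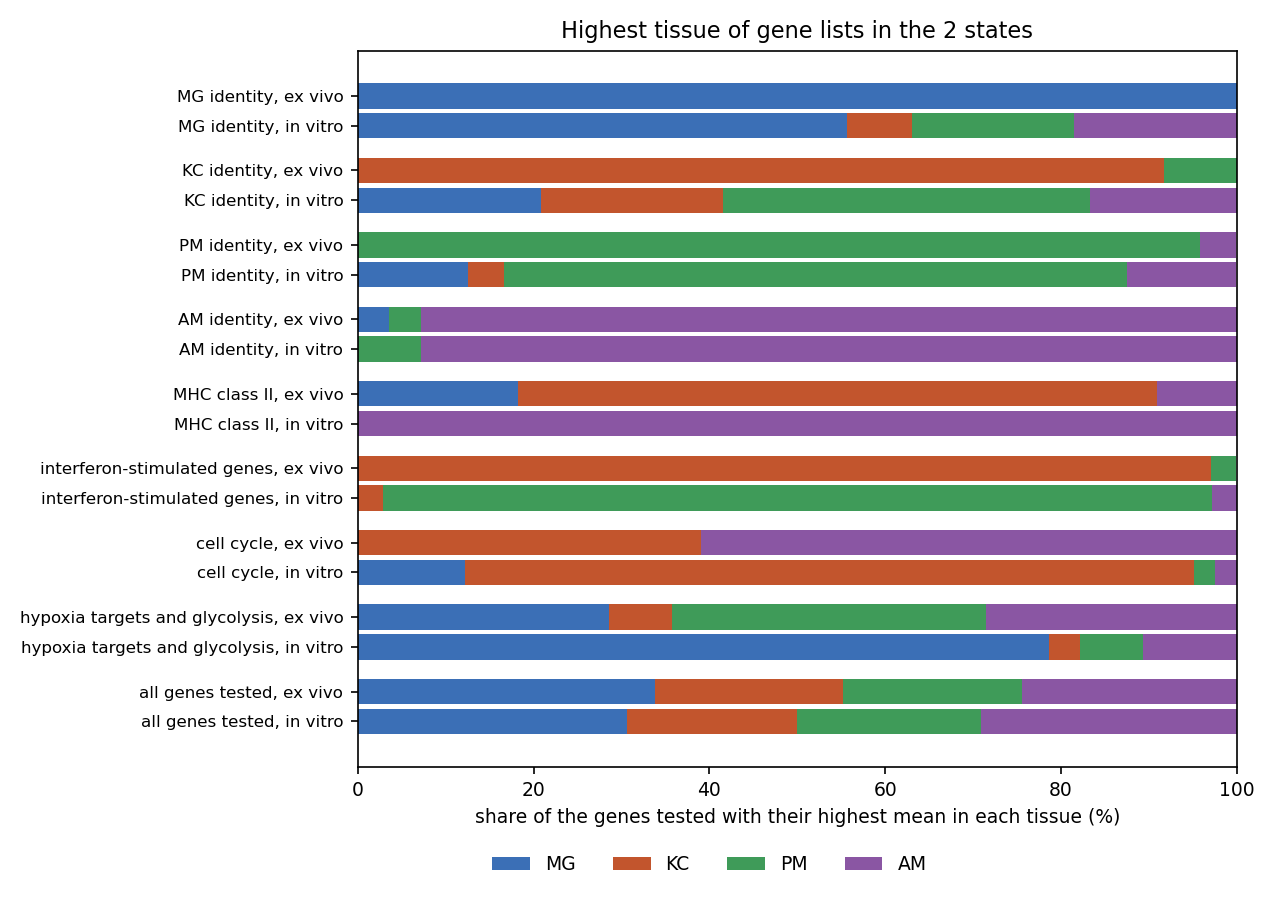
Share of the genes of each list (x axis, %) whose highest group mean is MG, KC, PM or AM, ex vivo and in vitro, with all 17408 genes tested in the last pair of bars. AM identity keeps AMs at 92.9% in both states, and KC identity falls from 91.7% to 20.8%. The highest mean of MHC class II genes is mostly in KCs ex vivo and in AM-LCs in vitro. That of interferon-stimulated genes is mostly in KCs and in PM-LCs, although 2 of those 35 genes passed the test in vitro (all genes tested, 6.03%).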

How the data were processed

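RNA sequencing libraries of sorted and cultured mouse macrophages were prepared with SMARTer and Nextera XT kits, which do not keep strand, and read from one end. The authors deposited whole-number counts per gene, made from reads trimmed and aligned by them (Trimmomatic 0.36 and STAR 2.5.2b per the labels). The labels name a human genome build, whereas the methods and the gene identifiers are those of mouse, so coordinates given here come from the mouse annotation (GENCODE, GRCm38) by identifier, and 45143 of 45706 identifiers had a symbol.

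From these counts, genes were kept by the filterByExpr function (minimum count 10), libraries were scaled by TMM, and edgeR 4.0.16 in R 4.3.3 fitted quasi-likelihood models separately to the 12 ex vivo and the 12 in vitro libraries. The interaction was fitted to all 24. Benjamini-Hochberg adjusted p under 0.05 was called. Levels are CPM of the scaled library, and tissue means and ranges use log2 CPM with a prior count of 2, which sets the size of ranges for genes near 0. The study used limma-voom, which was run as an alternative with limma 3.58.1, next to DESeq2 1.42.0, other filters and scalings, and fits without single libraries. The scripts were tested on simulated data. Libraries had 29569486 to 47105111 reads (median 35965750), and limits of detection cover counting error only.

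The members and gene lists were chosen with earlier results of these data known. Named genes were those the study names for its expression assays, members of the lists, and genes picked by size: for each tissue the 3 kept genes with the largest smaller range, the 3 lost with the largest fall and the 3 gained with the largest rise, and the 6 kept genes with another highest tissue in vitro and the largest smaller range. These picks needed a highest group mean above 5 on the log2 CPM scale and no overlap of the highest tissue with the others. Genes separating KC-LCs from PM-LCs and further list members were chosen after their values were seen. Some items named by these rules are not reported here.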

Additional observations from a re-analysis of the deposited data

Results flagged for a closer look

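In 6 kept genes the tissue effects differed between the sorted and the cultured state by the interaction test, and the tissue with the highest mean was another one after culture. The adjusted p of the interaction (edgeR) was 2.99e-05 for Folr2, 2.43e-06 for Vsig4, 0.00013 for Spint1, 5.02e-07 for Marco, 1.38e-05 for Rbp4 and 0.00591 for S1pr1. These genes were taken for the size of their differences in both states and for a highest tissue that did not overlap with the others, so the lack of overlap is fixed by the choice and the p-values describe them and are not separate support. For S1pr1 the in vitro difference (adjusted p = 0.0404) did not pass in 12 of 35 alternatives.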

How the results depend on the processing

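The counts of genes called ex vivo, of lost genes and of the interaction stayed within 1.5 times under the alternatives, except that the interaction was called for 4019 genes without AMs. In vitro counts were the most dependent, and the cause was not tested. The single fit of 24 libraries called 3673 genes in vitro, 2960 kept and 273 gained, and by pair 357 (MG and KC), 463 (MG and PM), 2587 (MG and AM), 447 (KC and PM), 2181 (KC and AM), 1807 (PM and AM), 3140 (AM and others) and 972 (MG and the mean of KC and PM), with 47.7% of the kept genes having the same highest tissue and 11% the same order. DESeq2 called 3888, 3139 and 254, by pair in that sequence 1068, 889, 2825, 1018, 2722, 2110, 3168 and 1064, with 47.2% and 11%. Of the 901 kept genes, 865 and 849 were kept in these. With limma-voom 123 genes were gained, and 3 genes separated MG-LCs from KC-LCs, 89 MG-LCs from PM-LCs, 63 KC-LCs from PM-LCs and 27 MG-LCs from the mean of KC- and PM-LCs. With quality weights per group these were 5 (MG and KC), 95 (KC and PM), 18 (MG and the mean), 2828 (KC and AM), 1357 (PM and AM) and 3017 (AM and others), and by state 3594 (PM and AM) and 4803 (AM and others). Asking for a log2 range above 1.5 left ex vivo 3842, 4064, 5279, 2948, 3891, 3403, 3693 and 3858 genes in the sequence above, in vitro 686 (MG and AM) and 1077 (AM and others), and by state 1981 (AM and others).

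With CPM above 1 in 3 libraries, MG- and PM-LCs differed in 37 genes, the median SD of tissue means was 0.781 ex vivo and 0.439 in vitro, 77.4% of genes had the larger SD ex vivo, and the ex vivo shares of the sum of squares between tissues were 37.9% (AM against the others), 38.1% (MG against KC and PM) and 24% (KC against PM). Without a filter these were 27 genes, with 58 for KC and PM and 4 for MG and the mean, SDs of 0.514 and 0.321, 69.2%, 37% (AM) and 25.2% (KC against PM). Correcting the variance for replicate noise gave 79.1%. A prior count of 0.5 gave SDs of 0.94 and 0.53 and shares of 37.5% (MG) and 25.2% (KC against PM), and a prior count of 5 gave 0.714, 0.405, 38.2% and 24.2%. Without AMs and AM-LCs, 2 genes were called in vitro, 2 kept and 0 gained, with 2 for MG and PM, 3 for KC and PM, 1 for MG and the mean, SDs of 0.718 and 0.365, 74.9% with the larger SD ex vivo, and 50% and 0% of the kept genes with the same highest tissue and order. Without the 3 libraries richest in fibroblast and mesothelium RNA (MG-LC 1, PM-LC 2 and AM-LC 3), the counts were 8 (MG and PM), 148 (KC and PM) and 1053 (PM and AM), the in vitro SD was 0.506, 73.7% had the larger SD ex vivo, 13.3% of kept genes the same order, and the in vitro shares were 52.4% (AM) and 20.7% (MG).

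Leaving out 1 library at a time gave 305 to 1768 genes called in vitro, 280 to 1537 kept, 15 to 143 gained, 4075 to 5242 lost, 9948 to 12493 called ex vivo and 5339 to 6780 for the interaction. By pair, the range was in vitro 0 to 339 (MG and KC), 1 to 83 (MG and PM), 267 to 1588 (MG and AM), 0 to 137 (KC and PM), 257 to 1688 (KC and AM), 146 to 1311 (PM and AM), 696 to 2723 (AM and others), 0 to 669 (MG and the mean of KC and PM). Ex vivo it was 5094 to 7231 (MG and KC), 5636 to 8471 (MG and PM), 7147 to 9880 (MG and AM), 4155 to 6619 (KC and PM), 5432 to 7779 (KC and AM), 4462 to 7308 (PM and AM), 5713 to 8624 (AM and others), 5594 to 8283 (MG and the mean of KC and PM). By state it was 2356 to 3485 (MG and KC), 2679 to 3852 (MG and PM), 2913 to 4054 (MG and AM), 1680 to 2829 (KC and PM), 2339 to 3678 (KC and AM), 1812 to 2799 (PM and AM), 2128 to 3432 (AM and others), 2514 to 3633 (MG and the mean of KC and PM). The median SD was 0.818 to 0.849 ex vivo and 0.458 to 0.506 in vitro, larger ex vivo in 73.2 to 77.8% of genes, and 50.4 to 66.6% and 10 to 14.3% of kept genes had the same highest tissue and order. Shares of the sum of squares were 36.6 to 38.1% (AM, ex vivo), 37.3 to 38.1% (MG, ex vivo), 24.4 to 25.7% (KC against PM, ex vivo), 35.5 to 50.1% (AM, in vitro), 21.2 to 42.2% (MG, in vitro), 22.4 to 34.5% (KC against PM, in vitro).

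The labels do not say whether replicate numbers pair the libraries. Deviations of same-numbered libraries of different tissues gave r of -0.061 to 0.043 ex vivo and -0.385 to 0.288 in vitro. These were above 0.1 in 0 and 5 of 18 pairs. Such correlations cannot show whether the libraries were paired. With the replicate number as a block, 646 genes were kept and 42 gained, MG- and PM-LCs differed in 5 and KC- and PM-LCs in 3 genes, and 59.8% and 13.8% of the kept genes had the same highest tissue and order. Among single genes, 4113 tests under an alternative gave the same call, 151 lost and 34 gained it.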
